A study of Rattus norvegicus with 20 samples.

Results

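Livers of rats fed tofu with soybean oil (the TS group, 5 rats) were set directly against livers of rats fed casein with fish oil (the CF group, 5 rats), so that the protein and the oil of the diet both differed between the groups. The members were all rats whose labels gave these diets, 10 of the 20 in the study. The rats were male Sprague-Dawley rats, an outbred strain, 4 weeks old on arrival, and were fed for 21 days on diets with 200 g/kg of protein and 150 g/kg of fat, of which 50 g/kg was fish oil in CF. Both the TS and TF diets held some casein beside the tofu. The rest of the added oil in CF was soybean oil, and most of the fat in TS came with the tofu. The TS diet also held less sucrose and less energy per kg than the CF diet. The other groups, 5 rats each, received casein with soybean oil (CS) or tofu with fish oil (TF), and their arrays entered the estimate of the spread and serve here as reference values. The arrays were those of the rats with average food intake in each group, each array carried the RNA of 1 rat, and food was withdrawn before the livers were taken. Whole liver holds several cell types, so fewer cells of a type and less RNA per cell cannot be told apart in these values.

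The measurement was a z score on a log scale for each of 31040 Affymetrix probe sets, and a level below is such a z score. A difference is the mean z of TS minus the mean z of CF, given with its standard error, and it is negative where TS was lower. On this scale a difference of 0.2 stands for a 1.41-fold difference in signal, and a fold is given only where both group means exceeded 0.022, the highest median of an array, since dim signals have no reliable ratio. Calls rest on a limma fit with Benjamini-Hochberg adjustment across every probe set tested and a threshold of 0.05. Each of 14217 genes is represented by its brightest probe set, and values of single rats are listed in the order of the rat numbers, 1, 2, 5, 6 and 7 in CF and 1, 2, 4, 5 and 7 in TS.

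The liver burns fatty acids in mitochondria and peroxisomes, stores them as triacylglycerol and makes them from carbohydrate. PPAR-alpha, a nuclear receptor that binds fatty acids, is known in rodents as a driver of genes for fatty acid oxidation, carnitine transport, thioesterases and Cyp4a hydroxylases. SREBP-1c and ChREBP are known as drivers of the lipogenic genes. Fish oil, with its long n-3 fatty acids, and soy protein are both studied as diets that lower blood lipids.

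Between TS and CF, 36 genes differed (0.253% of the genes), 28 lower in TS (0.197%) and 8 higher (0.0563%). Thioesterases, carnitine enzymes, peroxisomal enzymes and Cyp4a hydroxylases made up much of the lower side, with Pnpla3, a lipase of lipid droplets, and the lipogenic genes Me1 and Fads2. The drug-metabolising enzyme Fmo1, the chemokine Cxcl13 and the lipopolysaccharide co-receptor Cd14 led the higher side. At the level of probe sets, 47 of 31040 changed (0.151%), 38 lower in TS (0.122%) and 9 higher (0.029%). Of the 47, 3 had no single gene symbol and are not named. The largest difference among these was that of a probe set with several symbols, at -1.52 ± 0.23 (SE, adjusted p = 0.00415). In all 36 genes the values of the 5 TS rats and the 5 CF rats did not overlap, which was so for 279 genes in all (1.96%). When only the 10 TS and CF arrays were fitted 25 probe sets changed, 22 lower and 3 higher. Of the 8 higher genes only Fmo1 (adjusted p = 0.0288) and Cd14 (0.0494) remained called in that limma fit. The calls for Cxcl13 (0.121) and Slc13a3 (0.119) ended there, as did those for the lower genes Me1 (0.0739) and Fads2 (0.121). Those for Acot1 (0.00948) and Pnpla3 (0.00922) remained. When only probe sets with a mean above 0 were tested 100 changed, 64 lower and 36 higher. Across all genes the median difference was 0.011 and 42.8% of the differences were below 0.

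**Figure D1:**
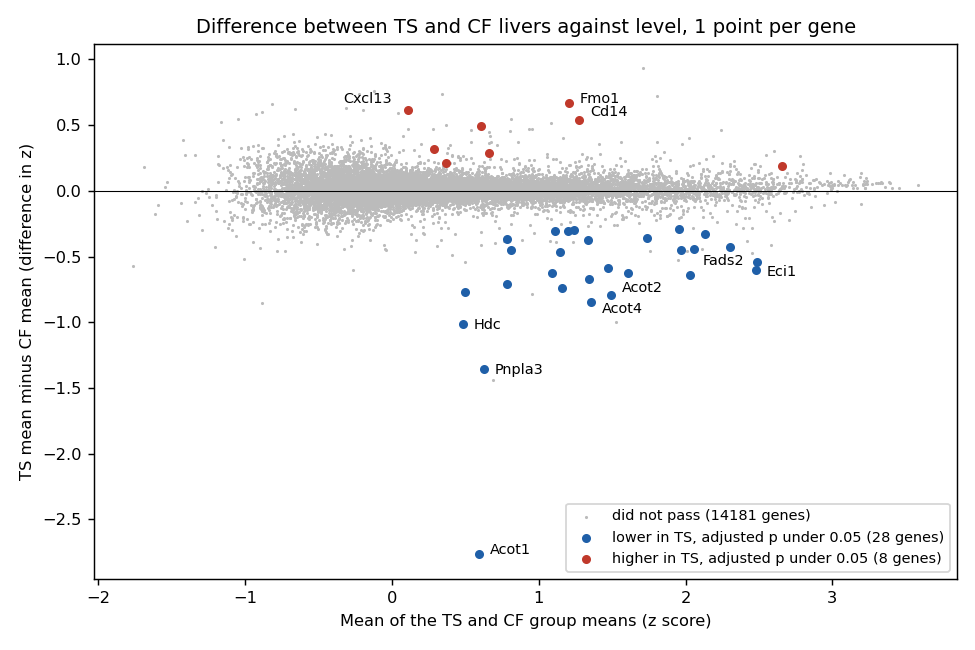
Each point is a gene, with the mean of the TS and CF group means (z score) on the horizontal axis and the difference TS minus CF (in z) on the vertical axis. Blue points are the 28 genes that were lower in TS, red points the 8 that were higher, and grey points the genes that did not pass. Acot1 lies lowest, at -2.77, and most of the grey points lie near 0.

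Acyl-CoA thioesterases, which split fatty acyl-CoA into free fatty acid and coenzyme A, were led by the largest difference of all changed genes. Of 11 members measured, 4 were lower in TS, namely Acot1 (cytosolic), Acot2 (mitochondrial) and Acot3 and Acot4 (peroxisomal), and the list's median was -0.11. Acot1 had levels of 0.69, 1.903, 2.51, 2.55 and 2.23 in the CF rats. Acot1 levels of -1.01, -0.68, -0.84, -0.86 and -0.56 were found in the TS rats. Every TS rat thus lay below 0 and every CF rat above it, and the CF rats were spread over a wide range, with CF-1 lowest. The difference for Acot1 was -2.77 ± 0.31 (SE, adjusted p = 0.000157). Without CF-1 it was -3.09 ± 0.25 (SE) with an adjusted p of 6.55e-06.

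Acot4 levels were 1.53, 1.79, 1.896, 1.84 and 1.83 in CF and 1.06, 1.05, 0.93, 0.80 and 0.82 in TS, which is a difference of -0.84 ± 0.077 (SE, adjusted p = 3.45e-05), or 4.32-fold. Acot2 stood at 1.704, 1.83, 2.05, 2.01 and 1.85 in CF and at 1.07, 1.18, 1.07, 1.06 and 1.09 in TS, a difference of -0.80 ± 0.077 (SE, adjusted p = 3.45e-05), or 3.97-fold. Acot3 was measured at 0.54, 0.68, 1.17, 1.12 and 0.90 in CF and at 0.16, 0.13, 0.086, 0.11 and 0.069 in TS, a difference of -0.77 ± 0.10 (SE, adjusted p = 0.000848). The TS rats were close together in Acot2 and Acot3, while the CF rats differed among themselves, with CF-1 lowest in all of Acot1, Acot2, Acot3 and Acot4. Both other probe sets of Acot2 were also lower in TS, at -0.73 and -0.64. The remaining 7 thioesterases did not pass, and among them Acot7 had the largest difference (-0.24, adjusted p = 0.228).

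In the RefSeq annotation of the rat genome (GRCr8) Acot2, Acot1, Acot4 and Acot3 lie in this order on chromosome 6, within 78.4 kb (chr6:109341426-109419840). Their coding sequences are close paralogs, so signal of one may reach the probe sets of another, and how the signal divides among the 4 genes is uncertain.

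The sequences upstream of 4 genes are shown because these genes have the largest falls and rises among those whose 250-base window lies outside their own annotated gene. They are the bases before the start of the gene in RefSeq (GRCr8), read 5′ to 3′ on the strand of the gene, with motif letters in capitals. Acot1 is at chr6:109367024-109367273 on the plus strand, Hdc at chr3:134318705-134318954 on the minus strand, Fmo1 at chr13:77747667-77747916 on the minus strand and Cxcl13 at chr14:13917921-13918170 on the minus strand.
Acot1: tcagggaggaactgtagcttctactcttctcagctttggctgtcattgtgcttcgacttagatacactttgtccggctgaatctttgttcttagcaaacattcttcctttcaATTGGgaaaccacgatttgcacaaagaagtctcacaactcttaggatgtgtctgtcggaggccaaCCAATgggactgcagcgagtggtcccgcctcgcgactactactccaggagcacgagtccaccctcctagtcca
Hdc: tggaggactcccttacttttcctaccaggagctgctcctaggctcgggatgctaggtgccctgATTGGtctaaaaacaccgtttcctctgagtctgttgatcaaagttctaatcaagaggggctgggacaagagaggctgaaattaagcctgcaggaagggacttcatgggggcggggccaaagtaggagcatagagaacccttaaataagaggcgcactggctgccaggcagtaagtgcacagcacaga
Fmo1: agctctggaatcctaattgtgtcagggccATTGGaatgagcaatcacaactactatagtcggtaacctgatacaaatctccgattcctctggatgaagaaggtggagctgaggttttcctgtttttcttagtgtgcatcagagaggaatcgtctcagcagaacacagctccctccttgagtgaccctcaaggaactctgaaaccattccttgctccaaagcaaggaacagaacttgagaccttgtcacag
Cxcl13: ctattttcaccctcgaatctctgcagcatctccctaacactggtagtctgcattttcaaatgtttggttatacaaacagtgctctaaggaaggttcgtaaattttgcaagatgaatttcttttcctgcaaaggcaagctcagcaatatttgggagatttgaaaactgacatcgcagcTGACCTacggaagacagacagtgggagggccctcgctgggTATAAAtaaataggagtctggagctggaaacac

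The Acot1 window holds 2 NF-Y boxes, at -138 and -73 from the start, and the Hdc and Fmo1 windows 1 each, at -187 and -221. The Cxcl13 window holds a half-site at -73 and a TATA box at -33. Promoter windows from 250 bases before to 50 after the start were at hand for 30 of the 36 changed genes, 22 lower and 8 higher. Only in 14 of these 30 did the 250-base stretch lie outside the gene's own annotated span. In the others it overlapped that span, so the counts below are not all of sequence upstream of the annotated gene. Each motif was searched for on both strands of the 250 bases before the start, in the changed genes and in all promoters alike. The NF-Y box, spelled CCAAT, was found in 8 of the 22 and 5 of the 8, against 34.0% of 33469 promoters. The nuclear receptor half-site, spelled AGGTCA, was found in 3 of the 22 (Acot4, Eci1 and Cyp4a3) and 1 of the 8, against 14.1%. The E-box, spelled CACGTG, was found in 0 of the 22 and 1 of the 8, Slc13a3, against 5.59%. The TATA box, spelled TATAAA, was found in 2 of the 22 and 1 of the 8, against 12.9%. These matches describe letters in a window and were not tested as binding sites.

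The carnitine shuttle carries fatty acids across membranes as carnitine esters. Of its 7 members measured, 4 were lower in TS and all 7 differences were below 0, with a median of -0.33. Crat, carnitine acetyltransferase, had levels of 1.34, 1.22, 1.63, 1.45 and 1.39 in CF and 0.99, 0.83, 0.72, 0.63 and 0.72 in TS, a difference of -0.62 ± 0.086 (SE, adjusted p = 0.00157), or 2.95-fold. CF-2, the lowest CF rat, stood above TS-1, the highest TS rat. Slc22a5, the plasma membrane carnitine carrier, differed by -0.37 ± 0.066 (SE, adjusted p = 0.021), and Cpt2, the inner membrane carnitine palmitoyltransferase, by -0.36 ± 0.062 (SE, adjusted p = 0.0128). Crot, the peroxisomal carnitine octanoyltransferase, differed by -0.33 ± 0.063 (SE, adjusted p = 0.0406). A dim probe set of Crot had a difference of 0.016, another one -0.35 (adjusted p = 0.262), and the mean of all 3 did not pass (-0.22, adjusted p = 0.0934). Cpt1a, the enzyme that admits long chain fatty acids to mitochondria, had a difference of -0.20 that did not pass (adjusted p = 0.571).

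Of 17 peroxisomal genes measured, 4 were lower in TS and 13 differences were below 0, with a median of -0.021. Ech1, an isomerase for unsaturated acyl-CoA, had levels of 2.16, 2.28, 2.501, 2.49 and 2.33 in CF and 1.79, 1.85, 1.64, 1.66 and 1.64 in TS, a difference of -0.64 ± 0.068 (SE, adjusted p = 7.73e-05), or 3.03-fold. Pex11a, a protein of peroxisome division, had 1.21, 1.44, 1.55, 1.39 and 1.297 in CF and 0.96, 1.01, 0.93, 0.84 and 0.82 in TS, a difference of -0.47 ± 0.076 (SE, adjusted p = 0.00844). Nudt7, a hydrolase of coenzyme A, differed by -0.30 ± 0.043 (SE, adjusted p = 0.00246), and Abcd3, an importer of the peroxisomal membrane, by -0.29 ± 0.052 (SE, adjusted p = 0.0207). Ehhadh, the bifunctional enzyme of the peroxisomal pathway, had a difference of -0.44 (adjusted p = 0.0595) and did not pass, with TS-1 at 2.14 near the lowest CF rat at 2.19. It passed without TS-1, at -0.50 (adjusted p = 0.0192), without TF-3 or TF-7, and in 7 of the 12 settings tried that did not leave out single rats. Catalase was level between the groups to within its error, with -0.0068 ± 0.05 (SE).

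In the mitochondrial β-oxidation list 1 of 15 genes was lower in TS and 13 of 15 differences were below 0, with a median of -0.11. The 1 gene was Eci1, the isomerase that moves double bonds of unsaturated fatty acids into place, at 2.64, 2.79, 2.89, 2.88 and 2.699 in CF and 2.24, 2.28, 2.199, 2.16 and 1.99 in TS. Its difference was -0.61 ± 0.076 (SE, adjusted p = 0.000669), or 2.86-fold. A dimmer second probe set of Eci1 had a difference of 0.071 that did not pass (adjusted p = 0.992), and with the mean of both probe sets the call ended (adjusted p = 0.621). Decr1, the reductase for the same class of unsaturated fatty acids, had -0.28 (adjusted p = 0.173) and passed without TS-1, at -0.35 (adjusted p = 0.00834), and in 2 of the 12 other settings, and the enzymes Acadm (-0.0046) and Acadl (-0.10) did not pass either.

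Cyp4a enzymes hydroxylate fatty acids at the end of the chain. Cyp4a1 had levels of 2.59, 2.75, 2.87, 2.89 and 2.69 in CF and 2.39, 2.26, 2.07, 2.25 and 2.097 in TS, a difference of -0.54 ± 0.075 (SE, adjusted p = 0.00157), or 2.57-fold. Cyp4a3 differed by -0.43 ± 0.073 (SE, adjusted p = 0.0143), and close paralogs may share its signal. The other 8 members of the Cyp4 list did not pass, and Cyp4a8 had a positive difference of 0.47 (adjusted p = 0.209). Without CF-1 Cyp4a8 passed as higher in TS, at 0.58 (adjusted p = 0.0488), opposite in direction to Cyp4a1 and Cyp4a3. Of the 10 differences in the list 6 were above 0, and the median was 0.031.

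In a list of 15 further genes, written as PPAR-alpha targets, 3 were lower in TS and 14 differences were below 0, with a median of -0.21. Whether each member, Hdc among them, is a target of the receptor in these livers was not tested. Hdc, the enzyme that makes histamine from histidine, had levels of 0.60, 1.13, 0.95, 1.37 and 0.903 in CF and -0.30, 0.087, 0.05, -0.0044 and 0.075 in TS. The TS rats lay together near 0 except TS-1, which was lower, every CF rat stood above them, and the difference was -1.01 ± 0.13 (SE, adjusted p = 0.00101). Vnn1, a pantetheinase, was at 1.404, 1.396, 1.64, 1.61 and 1.59 in CF and 0.95, 1.0004, 0.85, 0.46 and 0.69 in TS, a difference of -0.74 ± 0.10 (SE, adjusted p = 0.00138), or 3.59-fold. Pdk4, the kinase that holds back pyruvate dehydrogenase, had levels of 2.19, 2.03, 2.08, 1.69 and 1.62 in CF and 1.299, 1.21, 1.37, 1.33 and 1.29 in TS, a difference of -0.62 ± 0.12 (SE, adjusted p = 0.0438). A dimmer probe set of Pdk4 had a difference of -0.088 (adjusted p = 0.932). Ephx2, the soluble epoxide hydrolase, had a difference of -1.001 but an adjusted p of 0.327, and TS-1 and TS-5 stood at 0.38 and 0.46 and the other TS rats between 1.303 and 1.54. Fgf21, a fasting hormone of the liver, had -0.48 (adjusted p = 0.162).

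**Figure D2:**
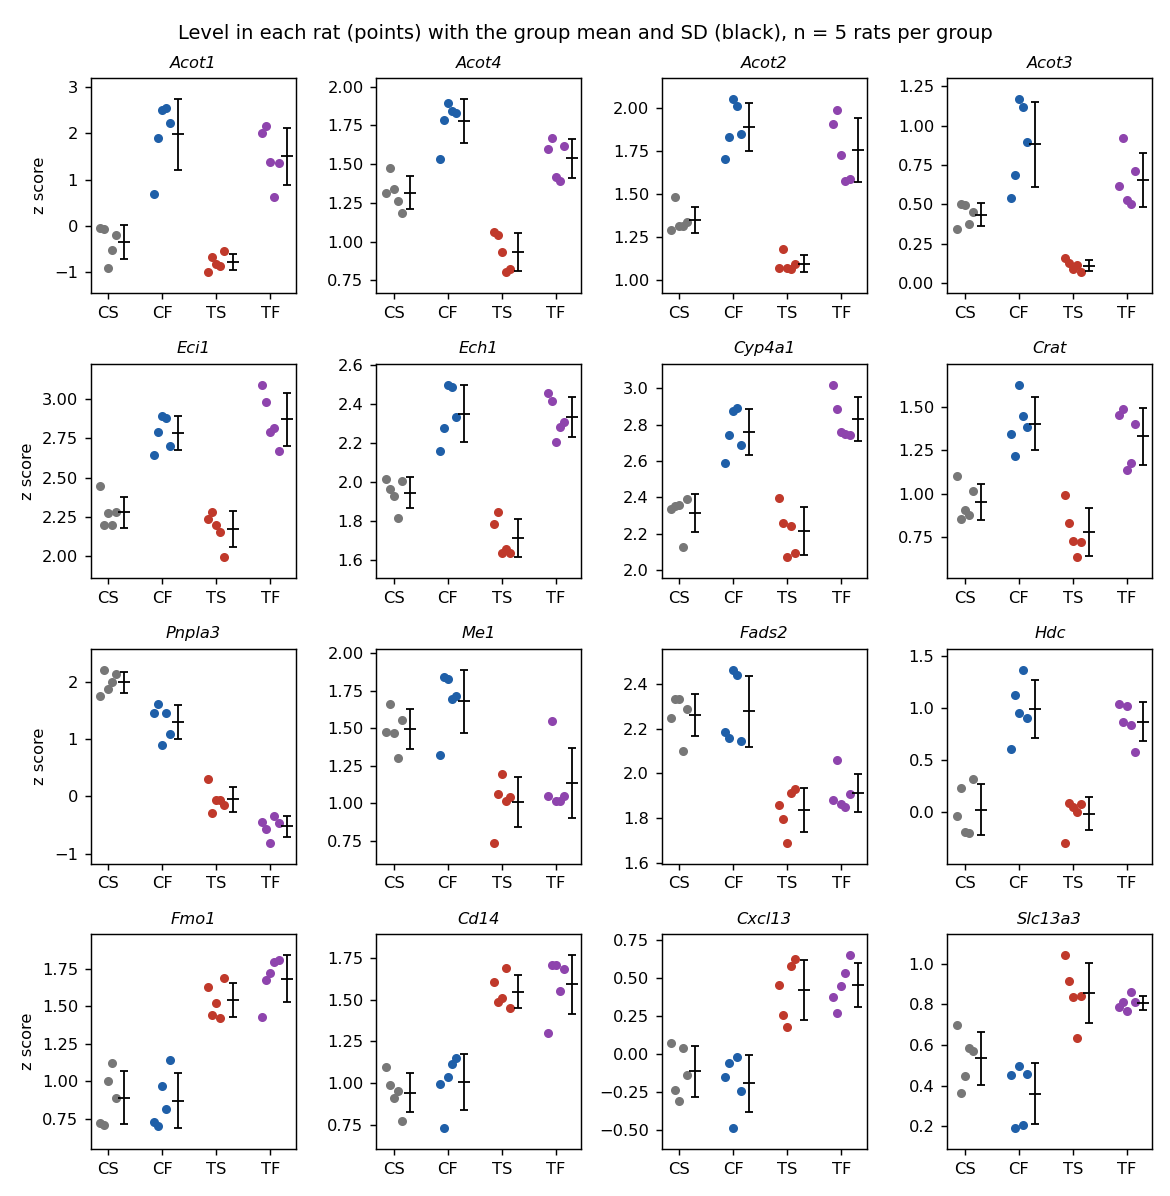
Levels (z score) of 16 genes in each of the 20 rats, with points for rats, a black line and bar for the mean and SD of each diet group, and vertical axes that differ between panels and do not start at 0. In the 12 genes of the upper 3 rows the TS points lie below all CF points, and in the 4 genes of the lowest row above them.

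Pnpla3, adiponutrin, is a lipase and acyltransferase on lipid droplets and a known target of the lipogenic factors. Its levels were 1.46, 1.61, 0.90, 1.45 and 1.09 in CF and 0.31, -0.29, -0.062, -0.061 and -0.16 in TS. The TS rats lay near 0 and every CF rat far above them, with a difference of -1.35 ± 0.13 (SE, adjusted p = 3.45e-05). Both other probe sets of Pnpla3 were lower in TS too, at -1.07 and -0.81. Pnpla3 also differed from CS, which had a mean of 1.99, by -2.04 in TS (adjusted p = 9e-08) and by -0.69 in CF, where the test was not passed (adjusted p = 0.0785). It was the 1 member of 24 in the triacylglycerol and lipid droplet list that changed. The list's median was -0.077, and Cidea, a lipid droplet protein, had -0.33 (adjusted p = 0.223).

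In the fatty acid synthesis list 1 of 11 genes was lower in TS, and 10 of 11 differences were below 0, with a median of -0.18. Me1, the malic enzyme that supplies NADPH for the synthesis, had levels of 1.32, 1.84, 1.82, 1.69 and 1.71 in CF and 0.74, 1.06, 1.196, 1.02 and 1.04 in TS. CF-1 stood apart from the other CF rats and still lay above every TS rat, and the difference was -0.67 ± 0.11 (SE, adjusted p = 0.0127), or 3.18-fold. A second probe set of Me1 was also lower in TS, at -0.92 (adjusted p = 0.000669). Fasn, the fatty acid synthase, was at 2.55, 2.497, 1.92, 1.97 and 2.14 in CF and 1.94, 1.43, 1.64, 1.87 and 1.57 in TS, and with TS-1 and TS-5 close to CF-5 its difference of -0.53 did not pass (adjusted p = 0.191). Acly, which makes cytosolic acetyl-CoA, had -0.25 (adjusted p = 0.289).

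Of 13 genes for desaturation and elongation 1 was lower in TS, and the median was -0.028. Fads2, the Δ6 desaturase of polyunsaturated fatty acids, had levels of 2.19, 2.16, 2.46, 2.44 and 2.15 in CF and 1.86, 1.797, 1.69, 1.91 and 1.93 in TS, a difference of -0.44 ± 0.071 (SE, adjusted p = 0.0072), or 2.14-fold. The groups did not overlap, and the lowest CF rat, CF-7, stood above the highest TS rat, TS-7. Fads1, the Δ5 desaturase, had -0.23 (adjusted p = 0.115), Scd, the Δ9 desaturase, -0.41 (adjusted p = 0.387) and Elovl6 -0.32 (adjusted p = 0.482), and none of these passed, though Fads1 did so in 3 of the 12 other settings. Insig1, an anchor of the SREBP system, had -0.45 (adjusted p = 0.179) and passed without TS-5, at -0.57 (adjusted p = 0.00804), and Srebf1, which encodes SREBP-1, -0.14 (adjusted p = 0.909). Ppara had -0.0074 (adjusted p = 0.995).

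Further genes lower in TS have other roles. Aig1, a hydrolase of fatty acid esters, was at 0.99, 1.06, 1.296, 1.27 and 1.09 in CF and 0.46, 0.51, 0.33, 0.56 and 0.31 in TS, a difference of -0.71 ± 0.075 (SE, adjusted p = 7.69e-05). A second, dim probe set of Aig1 had a difference of 0.011, and the mean of both did not pass (adjusted p = 0.103). Aldh1a1, a retinaldehyde dehydrogenase, differed by -0.59 ± 0.11 (SE, adjusted p = 0.021) and was the 1 of 14 genes of retinoid metabolism that changed. Cyp17a1, a steroid hydroxylase, was at 1.02, 0.92, 1.195, 1.06 and 1.003 in CF and 0.61, 0.54, 0.58, 0.62 and 0.60 in TS, a difference of -0.45 ± 0.071 (SE, adjusted p = 0.00661). The TS rats lay within a narrow range in Cyp17a1, well below every CF rat. Angptl4, an inhibitor of lipoprotein lipase, differed by -0.45 ± 0.079 (SE, adjusted p = 0.0186) and was the 1 of 21 genes for apolipoproteins and lipoprotein handling that changed. Ccnd1, cyclin D1, differed by -0.31 ± 0.059 (SE, adjusted p = 0.0435) and was the 1 of 24 cell cycle genes. Vwa8 (-0.30 ± 0.047 (SE, adjusted p = 0.00521)) and Hsdl2 (-0.37 ± 0.074 (SE, adjusted p = 0.0479)) complete the lower side. When the probe sets of each gene were averaged, the calls for Ccnd1 (adjusted p = 0.0791) and Hsdl2 (adjusted p = 0.0518) ended. Vwa8, Hsdl2, Cyp17a1 and Abcd3 were named after their values were seen, so that all changed genes are accounted for.

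**Figure D3:**
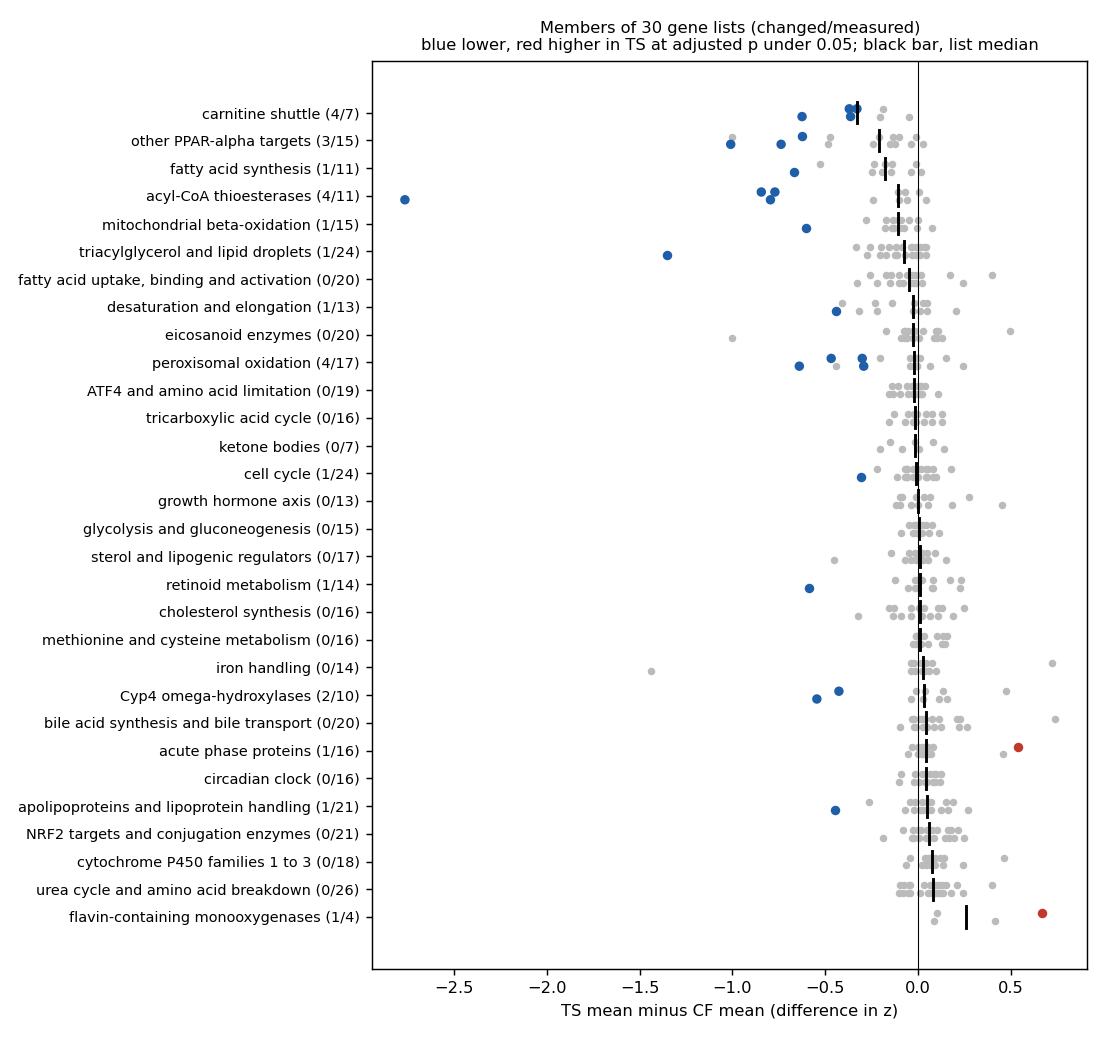
Difference TS minus CF (in z) of each member of 30 gene lists, 1 row per list, sorted by the list median (black bar), with the number of members changed and measured in brackets. Blue and red points passed the adjusted p of 0.05, grey points did not. The carnitine shuttle lies farthest to the left by its median, at -0.33.

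In all, 26 of 475 genes in the 30 lists changed (5.47%, against 0.253% of all genes), and 16 of the lists had no member that changed. The lists were written with earlier results of these arrays known, so the counts are no independent support. No member changed among the genes of cholesterol synthesis (16 measured), ketone bodies (7), glycolysis and gluconeogenesis (15), the tricarboxylic acid cycle (16), the circadian clock (16) or the ATF4 response to amino acid limitation (19), with list medians between -0.019 and 0.044. Lss, the lanosterol synthase of the cholesterol pathway, had -0.32 (adjusted p = 0.701) and passed without TS-5, at -0.49 (adjusted p = 0.0349). The median over 26 genes of the urea cycle and amino acid breakdown was 0.079, and Oat, ornithine aminotransferase, had 0.40 (adjusted p = 0.16) and passed without TS-2, at 0.47 (adjusted p = 0.0406), and in 2 of the 12 other settings.

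Among the genes higher in TS, Fmo1, a flavin-containing monooxygenase that oxidises amines and sulfides, had levels of 0.73, 0.70, 0.97, 0.82 and 1.14 in CF and 1.63, 1.44, 1.52, 1.43 and 1.69 in TS. The highest CF rat, CF-7, lay below the lowest TS rat, TS-5, and the difference was 0.67 ± 0.10 (SE, adjusted p = 0.00246), or 3.20-fold. It was the 1 of 4 monooxygenases measured that changed, and Fmo5 had 0.42 (adjusted p = 0.787). Slc13a3, a carrier of dicarboxylates, had 0.45, 0.19, 0.50, 0.20 and 0.46 in CF and 1.04, 0.91, 0.84, 0.64 and 0.84 in TS, a difference of 0.49 ± 0.077 (SE, adjusted p = 0.00595), or 2.35-fold.

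Cd14 and Cxcl13 belong to innate immunity. Cd14, the co-receptor for lipopolysaccharide, had levels of 0.99, 0.73, 1.04, 1.12 and 1.15 in CF and 1.605, 1.49, 1.51, 1.69 and 1.45 in TS, a difference of 0.54 ± 0.087 (SE, adjusted p = 0.0072), or 2.56-fold. Cxcl13, a chemokine that attracts B cells, was at -0.15, -0.062, -0.49, -0.018 and -0.25 in CF and 0.46, 0.26, 0.18, 0.58 and 0.63 in TS, so that every CF rat lay below 0 and every TS rat above, and the difference was 0.61 ± 0.11 (SE, adjusted p = 0.0144). Slfn4, a schlafen protein of myeloid cells, had 0.0078, 0.15, 0.045, 0.25 and 0.20 in CF and 0.51, 0.28, 0.49, 0.36 and 0.59 in TS, with TS-2 close to CF-6. Its difference was 0.32 ± 0.062 (SE, adjusted p = 0.0479). A second probe set of Slfn4, with means below 0 in all groups, had a difference of -0.12 (adjusted p = 0.932), and the mean of both did not pass (0.097, adjusted p = 0.794). In the acute phase list Cd14 was the 1 of 16 genes that changed, and the protease inhibitor A2m had 0.46 (adjusted p = 0.153) and Crp 0.027.

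Markers of macrophages stand beside these values. The mean level over 9 Kupffer cell and macrophage markers ranged from 1.18 to 1.22 in CF and from 1.16 to 1.40 in TS, all 9 differences were above 0 with a median of 0.099, and none passed. The differences were also above 0 in 7 of 7 hepatocyte, 8 of 8 endothelial, 9 of 10 stellate and fibroblast and 3 of 3 erythroid markers, with 3 of 5 cholangiocyte and 3 of 7 lymphocyte markers. Of the 49 marker genes 0 changed in the limma fit, against 36 of all 14217 genes (0.253%). At so low a share a count of 0 is usual for a set of this size, so nothing is read from it. Without TS-2 the erythroid marker Slc4a1 passed at 0.42 (adjusted p = 0.00749) and the endothelial marker Fcgr2b at 0.28 (adjusted p = 0.0434), against 0.35 (adjusted p = 0.0725) and 0.25 (adjusted p = 0.109) with all rats. With no single rat left out, Fcgr2b also passed in 4 and Slc4a1 in 2 of the 12 other settings. The hepatocyte markers had mean levels of 3.14 to 3.27 in CF and 3.21 to 3.38 in TS, and the lymphocyte markers stayed below 0 in all 10 rats. The part of cell composition in Cd14, Cxcl13 and Slfn4 was not tested.

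The remaining genes higher in TS had small differences. Xpnpep2, a membrane aminopeptidase, differed by 0.29 ± 0.055 (SE, adjusted p = 0.0337), Reck, an inhibitor of matrix metalloproteinases, by 0.21 ± 0.042 (SE, adjusted p = 0.0499), and Ang, a secreted ribonuclease, by 0.19 ± 0.036 (SE, adjusted p = 0.0337). Ang was the only changed gene whose difference was under 0.2. Igfbp3, a carrier of IGF-1, had a second probe set that was higher in TS at 0.29 (adjusted p = 0.0239), while its brightest probe set did not pass (0.19, adjusted p = 0.221). A dim probe set of Adam22 was lower in TS at -0.71 (adjusted p = 0.0143), and the brightest one of that gene had 0.089 (adjusted p = 0.949).

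Several differences were large and did not pass, and in some of these the rats of a group were spread widely or the groups lay close. Hamp, which encodes the iron hormone hepcidin, was at 2.297, 1.79, 1.51, 0.0078 and 1.43 in CF and at -0.10, 0.11, -0.21, 0.085 and -0.046 in TS. CF-6 lay at the level of the TS rats while the other 4 CF rats stood far above, and the difference of -1.44 ± 0.37 (SE) had an adjusted p of 0.209. Without CF-6 the difference for Hamp was -1.79 and passed (adjusted p = 0.031). Tfrc, the transferrin receptor, had 1.26, 1.65, 1.35, 1.73 and 1.24 in CF and 2.24, 1.71, 2.46, 2.02 and 2.42 in TS, a difference of 0.72 ± 0.22 (SE, adjusted p = 0.425). In Tfrc CF-6 lay above TS-2, and CF-2 lay just below TS-2. Cyp7a1, the rate-limiting enzyme of bile acid synthesis, was at -0.51, -0.051, -0.053, 0.24 and 0.22 in CF and 0.20, 0.79, 0.41, 0.77 and 1.38 in TS, a difference of 0.74 ± 0.23 (SE, adjusted p = 0.408), with TS-1 below CF-6 and CF-7. Alox15, a lipoxygenase, had 0.50 (adjusted p = 0.166) and TS-1 at 1.16, far above the other TS rats, and it passed without TS-2 at 0.61 (adjusted p = 0.0201). Cyp1a2, a hydroxylase of foreign compounds, was higher in each TS rat than in any CF rat, at 2.01, 1.88, 2.09, 2.04 and 2.03 in CF and 2.63, 2.24, 2.44, 2.54 and 2.52 in TS, yet its difference of 0.46 did not pass (adjusted p = 0.135) except without CS-2 (adjusted p = 0.0427) or among bright probe sets.

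The levels in CS and TF, which the difference TS minus CF did not use, placed the changed genes in different positions. Of the 28 genes lower in TS, the CS mean lay between those of TS and CF in 26. These genes were chosen for a wide gap between TS and CF, within which another mean falls more readily, so nothing is read from this count. Pnpla3, with CS above both, and Crot, with CS below both, were the exceptions. The TF mean, of rats that ate both tofu and fish oil, was nearer to CF in 21 of the 28 genes (75.0%, against 48.0% of all genes lower in TS by mean). It was nearer to TS in the other 7, Pnpla3, Me1, Pdk4, Cyp17a1, Angptl4, Fads2 and Ccnd1. In the same 7 genes the CS mean was nearer to CF than to TS (25.0%, against 52.4% of all genes lower in TS by mean). In the 21 others it was nearer to TS. Of the 8 genes higher in TS, the CS mean lay between the others in 5, from which again nothing is read. The CS mean was nearer to CF in all 8 (against 63.9% of all genes higher in TS by mean). The TF mean was nearer to TS in 7 (against 54.7%), all except Slfn4. If the differences with protein and with oil simply add, the place of the TF mean follows from that of the CS mean. The CS and TF counts are therefore not separate results.

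Examples show both positions. For Cyp4a1 the CS mean was 2.31, the CF mean 2.76, the TS mean 2.21 and the TF mean 2.83. Fads2 had 2.26, 2.28, 1.84 and 1.91 in the same order. Fmo1 had 0.89, 0.87, 1.54 and 1.69. So the levels of Cyp4a1 lay together in the 2 fish oil groups, those of Fads2 and Fmo1 in the 2 tofu groups.

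Set against CS in the same fit, 22 probe sets changed in TS (0.0709%) and 14 in CF (0.0451%), and both comparisons share arrays with TS minus CF. Acot1 differed from CS by 2.33 in CF (adjusted p = 0.00538) and by -0.44 in TS (adjusted p = 0.838). Hdc differed from CS by 0.97 in CF (adjusted p = 0.00569) and by -0.038 in TS (adjusted p = 0.983). For Fads2 the values were 0.018 in CF (adjusted p = 1) and -0.42 in TS (adjusted p = 0.0208), and for Cd14 they were 0.062 (adjusted p = 1) and 0.60 (adjusted p = 0.00649). Acot4 passed in CF, at 0.46 (adjusted p = 0.0259), and had -0.38 in TS (adjusted p = 0.0927). Me1 passed in neither, with 0.19 in CF (adjusted p = 1) and -0.48 in TS (adjusted p = 0.198). In a limma fit of CF and CS alone 0 probe sets passed (lowest adjusted p 0.058, with 1445 at an unadjusted p under 0.05), so the calls in CF for Acot1 (0.0694), Hdc (0.0965) and Acot4 (0.11) ended. In a fit of TS and CS alone the call for Fads2 ended (0.0675) and that for Cd14 remained (0.0158). The calls against CS for Acot1, Hdc and Cd14 remained whichever rat was left out. That for Acot4 ended without CF-2, CF-5, CF-6, CF-7, CS-1, CS-5, CS-6 or CS-7 (up to 0.133), and that for Fads2 without CS-1, CS-2, CS-5, CS-7, TS-1, TS-2 or TS-4 (up to 0.0813).

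**Figure D4:**
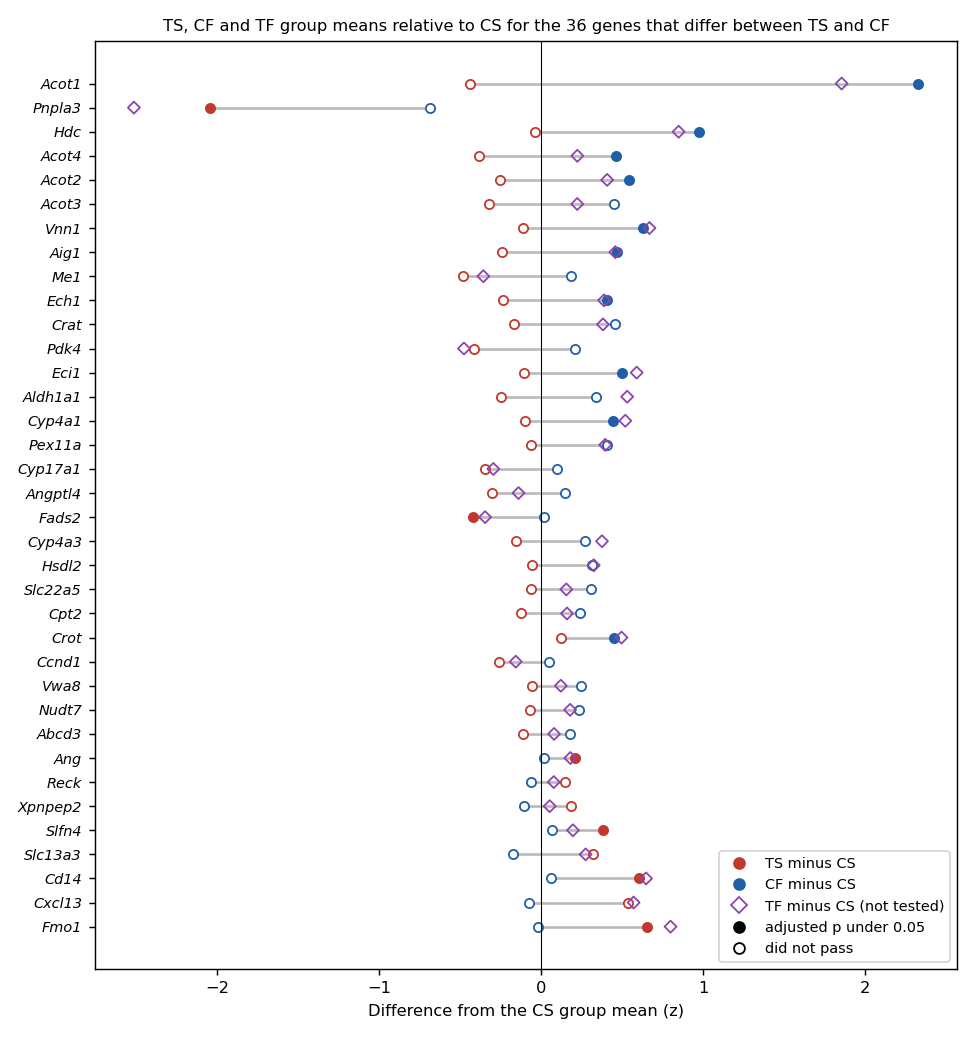
For each of the 36 genes that differed between TS and CF, the difference of the TS mean (red), the CF mean (blue) and the TF mean (purple diamonds, not tested) from the CS mean is shown in z. Filled circles passed the adjusted p of 0.05 against CS, open circles did not, and the grey line joins TS and CF. For Acot1 CF stands at 2.33 and TS at -0.44, while for Pnpla3 both lie below 0.

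No summary measure of the arrays passed a test of TS against CF, which with 5 rats in each group does not show them to be alike. In 5 exact two-sided permutation tests of TS against CF, over array median, spread, correlation with the other arrays and the 3′ to 5′ differences of 2 control transcripts, the lowest adjusted p was 0.503, and 5 rats against 5 cannot give an unadjusted p below 0.0079. CF-1, TS-1, CS-1 and TF-3 were the 4 arrays of the study, 1 in each diet group, with a low 5′ beta-actin control (1.30 to 1.42, against 1.86 to 2.13 in the other 16), and so every rat with the number 1 was among them. CF-1 was the lowest CF rat in 15 of the 28 genes lower in TS (53.6%), against 20.5% of all genes. Without these 4 arrays 35 probe sets changed between TS and CF, 31 lower in TS and 4 higher, and 30 of them were among the 47. The part of RNA quality in the values of CF-1 was not tested.

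Of the 36 changed genes 20 remained called whichever of the 20 rats was left out. These were Acot1, Pnpla3, Hdc, Acot4, Acot2, Acot3, Vnn1, Aig1, Ech1, Crat, Eci1, Cyp4a1, Pex11a, Cyp17a1, Fads2, Vwa8, Nudt7, Slc13a3, Cd14 and Fmo1. Of them, 14 also passed under every other setting tried (Acot1, Pnpla3, Hdc, Acot4, Acot2, Acot3, Vnn1, Ech1, Crat, Cyp4a1, Pex11a, Nudt7, Cd14 and Fmo1). The other 16 calls ended when certain single rats were left out, and the value given is the highest adjusted p among those fits. Me1 lost its call without CF-2 or CF-5 (0.0518). Pdk4 kept its call only without CF-6, CF-7, CS-2, CS-7, TF-4 or TF-5 (0.155). Aldh1a1 lost its call without CF-5, CF-6, CF-7, TS-1, TS-4 or TS-7 (0.088). Angptl4 lost its call without CF-2, CF-5, TS-1, TS-4 or TS-7 (0.0769). Cyp4a3 lost its call without CF-7, TS-1, TS-4 or TS-5 (0.0579). Hsdl2 kept its call only without CF-1, TF-4 or TF-7 (0.166). Slc22a5 lost its call without CF-5, CF-6, CF-7, TS-1, TS-4, TS-5 or TS-7 (0.0869). Cpt2 lost its call without CF-5, CF-6 or TS-1 (0.053). Crot kept its call only without CS-1, CS-2, CS-6, TF-3, TF-5, TF-7 or TS-7 (0.133). Ccnd1 kept its call only without CS-1, CS-5, CS-6, TF-5, TF-6 or TF-7 (0.149). Abcd3 lost its call without CF-1, CF-2, CF-5, CF-6, TS-2 or TS-5 (0.0798). Ang lost its call without CF-2, CF-5, CF-6, CF-7, CS-5, TF-6, TS-1, TS-2, TS-4 or TS-7 (0.116). Reck kept its call only without CF-1, CS-2, TF-3, TF-4 or TF-7 (0.155). Xpnpep2 lost its call without CF-1, CF-2, CF-5, CF-6, CS-5, TF-6, TS-4, TS-5 or TS-7 (0.13). Slfn4 kept its call only without CF-6, CS-1 or TS-2 (0.165). Cxcl13 lost its call without CF-5, CF-7, TS-1, TS-5 or TS-7 (0.0614). The number of probe sets higher in TS was 9 with all rats, 3 without TS-7 and 13 without TS-2.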

How the data were processed

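Liver RNA of 20 rats, 5 in each of 4 diet groups, was hybridised to Affymetrix rat genome expression arrays, 1 array per rat. The authors deposited for every rat and probe set a score, namely the z score of the log signal. They used SuperNORM, a data service that fits a lognormal distribution to the signals of each array. By the authors' methods a difference of 0.2 in these scores is a 1.41-fold difference, and 0.4 was therefore taken as 2-fold. How background was treated, and how probes were combined into each rat's score, are not given in the sources used here (for differences between groups the methods name trimmed means over perfect match probes), and the number of arrays limits the precision (median SE of a difference 0.0754). No scan date or other batch label was used.

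The table holds 31099 probe sets with 63 missing values. After removal of 57 controls, the 31040 probe sets with at least 3 values in both TS and CF were tested (2 were left out). Gene symbols came from the array annotation, updated by gene identifier to RefSeq (GRCr8) in 20758 probe sets and kept in 68. Only the 20826 tested probe sets with a single symbol are named, since 436 had several and 9778 had none. Where a gene had several, the brightest by its mean over the 20 arrays was taken.

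All 20 arrays were fitted with 1 mean per diet group in limma 3.58.1 in R 4.3.3, with moderated variances and Benjamini-Hochberg adjustment over all probe sets tested. This stands in for the authors' ANOVA over single probe cells, which were not used here. Tables, permutation tests and figures were made in Python 3.11.15. As a check of the code, the fit was also run on simulated data with known differences. The noise there was drawn independently for each probe set and array, so that run is no support for the calls. Rats of 1 group are separate animals. Rat numbers 1, 2, 5 and 7 occur in both groups, and the correlation of same-numbered deviations ranged from -0.061 to 0.094, so the numbers were not taken as pairs (a correlation over 0.1 in every pair was required).

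Named are the changed genes with the largest rises and falls without overlap between groups (at most 12 each way), up to 4 members of each gene list, and the remaining changed genes. The members and lists were chosen with earlier results of these data known. Alternatives were quantile normalization, array scaling, bright probe sets only, a fit of 2 groups, other variance models, array weights, the rat number as a block, other thresholds, the mean of all probe sets and leaving out each rat. Settings without the 4 arrays with a low 5′ actin control, with them as a block, and without the 3 least correlated arrays were chosen after seeing the data.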

Additional observations from a re-analysis of the deposited data

Results flagged for a closer look

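Dixon's test for a single value far from the rest was applied to 194 groups of 5 rats, over 92 named genes and 5 array measures in TS and CF, and found 15 such values, while chance flags about 1 in 20 groups, or 9.7 here. Among changed genes, Hdc in TS-1 was -0.30, below the other TS rats at -0.0044 to 0.087. Acot2 in TS-2 was 1.18, above the other TS rats at 1.06 to 1.09. Me1 in CF-1 was 1.32, below the other CF rats at 1.69 to 1.84. The calls for Hdc and Acot2 remained without each of these rats, and that for Me1 remained without CF-1.

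Among list members that did not change, TS-5 stood above the other TS rats in Lss (1.47, against 0.56 to 0.77) and in Slc27a5, the bile acyl-CoA synthetase (2.45, against 2.18 to 2.24). TS-2 stood below them in Slc4a1 (0.11, against 0.41 to 0.49) and in Oat (1.93, against 2.23 to 2.34). TS-7 stood below them in Birc5, a cell division gene (-0.40, against -0.13 to -0.024), and in Cyp26b1, a retinoic acid hydroxylase (-0.032, against 0.42 to 0.56). TS-1 stood below them in Fabp2, a fatty acid binding protein (-0.36, against 0.024 to 0.17). CF-2 stood above the other CF rats in Elovl6 (1.24, against 0.58 to 0.75) and in Aass, an enzyme of lysine breakdown (2.19, against 1.89 to 1.97).

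The mean correlation of array TS-7 with the other arrays was 0.943, against 0.952 to 0.954 in the other TS arrays. The 3′ minus 5′ difference of the beta-actin control was 0.789 in TS-1, against 0.501 to 0.526 in the other TS arrays, and 0.771 in CF-1, against 0.446 to 0.500 in the other CF arrays.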

How the results depend on the processing

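The direction of all named genes was kept in 2936 combinations of gene and setting, with 226 calls lost and 35 gained. For TS minus CF the count of 47 changed probe sets (9 higher, 38 lower) became 100 (36 higher, 64 lower) with bright probe sets only, 25 (3 higher, 22 lower) in a fit of only TS and CF, and 27 (3 higher, 24 lower) at an adjusted p under 0.01, with 16 in place of 26 list members in both of the latter. The higher count alone became 21 with a variance trend, 21 at an adjusted p under 0.1, 4 without the low actin arrays and 5 without the 3 least correlated arrays. For TS minus CS the count of 22 became 49 with bright probe sets, 12 in a fit of 2 groups, 10 at an adjusted p under 0.01, 5 without the low actin arrays and 9 without the least correlated arrays. For CF minus CS the count of 14 became 29 with bright probe sets, 8 without moderation, 24 with a variance trend, 27 with array weights, 6 at an adjusted p under 0.01 and 25 under 0.1. In a limma fit of CF and CS alone it was 0, with 1445 probe sets at an unadjusted p under 0.05. Fewer probe sets enter the bright fit and fewer arrays the 2-group fits, and the cause of the changed counts was not tested for any setting.

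With 1 rat left out the counts ranged from 34 (without CF-5) to 53 (without CF-1) for TS minus CF, with 3 (without TS-7) to 13 (without TS-2) higher, 27 to 44 lower and 18 to 26 list members. They ranged from 11 (without TS-4) to 26 for TS minus CS and from 6 (without CF-5) to 22 (without CF-1) for CF minus CS. With the rat number as a replicate block 36 probe sets changed for TS minus CF, 28 of them among the 47, and 6 for CF minus CS, although the numbers were not taken as pairs. Of the 4 TS rats with a CF rat of the same number, 2 correlated best with it, and the highest such correlation, 0.094, was that of TS-1 and CF-1, both with a low actin control.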
